A study of Mus musculus with 12 samples.

Results

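The genes described here are 4 annexins (Anxa1, Anxa2, Anxa3 and Anxa5), 4 genes of the S100 family (S100a4, S100a6, S100a10 and S100a11) and Lgals1, which encodes galectin-1. They were taken by gene symbol from a table of 16970 genes measured in 12 mouse liver libraries, and all 9 were present. All 9 also passed the filter for testing, an FPKM (fragments counted on a gene, scaled by its length and by library depth) of at least 1 in at least 3 libraries, as did 10805 genes of the table.

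Annexins are cytosolic proteins that bind phospholipid membranes when calcium rises. S100 proteins are small calcium sensors that change shape on binding calcium and then dock onto other proteins, and several of them dock onto annexins: S100a10 pairs with Anxa2 and S100a11 with Anxa1. Galectins bind galactose-containing sugar chains on cell surfaces and matrix. In liver these genes are known mainly from bile duct cells, macrophages, endothelium and activated stellate cells, the matrix-forming cells of fibrosis, and less from resting hepatocytes.

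The livers came from mice with cholestasis, in which bile does not leave the liver normally, in 4 groups of 3 libraries. BDL stands for ligation of the bile duct for 7 days. BDL_H mice were ligated as well and were dosed at 100 mg/kg with the bile acid HDCA, hyodeoxycholic acid, for 4 days, begun 3 days after surgery. The libraries labelled MDR and MDR_H were taken as the Abcb4-/- mice of the series description, which lack the transporter that carries phosphatidylcholine into bile, because Mdr2 is an older name of Abcb4 and the description names no other second model. The HDCA-treated Abcb4-/- mice were 60 days old and were given 100 mg/kg for 21 days. Healthy livers were not analysed here, so every value is relative to another cholestatic liver. No label says that replicates came from separate animals, so the p-values measure only the spread among these libraries, which may in part be technical; MDR replicate 1 differed from MDR replicates 2 and 3 in Y-linked reads, so those 3 were not all repeats of 1 animal.

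Members lie on 5 chromosomes of GRCm38, 5 of them on chromosome 3. There S100a4 (chr3:90603770-90606045) and S100a6 (chr3:90612894-90614414) lie close together on the plus strand, as do S100a11 (chr3:93520496-93526288) and S100a10 (chr3:93555117-93564645), while Anxa5 lies apart (chr3:36448923-36475887, minus strand). Anxa1 is at chr19:20373434-20390671 (minus), Anxa2 at chr9:69453683-69491792 (plus), Anxa3 at chr5:96793385-96845968 (plus) and Lgals1 at chr15:78926725-78930465 (plus). The sequence just before the start site was matched in RefSeq (GRCm38.p6) for 6 of the 9 members, and not for Anxa3, S100a10 and Lgals1. The 250 bases before the start are given 5′ to 3′ on the strand of the gene for Anxa1 and S100a6, which were both called higher in MDR than in BDL, and for Anxa2 and S100a11, which hold more of the motifs searched. Capitals mark the motifs.

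Anxa1 (chr19:20390672-20390921, minus): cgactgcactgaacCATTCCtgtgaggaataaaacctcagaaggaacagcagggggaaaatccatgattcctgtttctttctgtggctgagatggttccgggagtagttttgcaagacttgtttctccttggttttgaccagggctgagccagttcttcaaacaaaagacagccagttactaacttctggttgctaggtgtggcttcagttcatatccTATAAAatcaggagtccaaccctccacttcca
S100a6 (chr3:90612644-90612893, plus): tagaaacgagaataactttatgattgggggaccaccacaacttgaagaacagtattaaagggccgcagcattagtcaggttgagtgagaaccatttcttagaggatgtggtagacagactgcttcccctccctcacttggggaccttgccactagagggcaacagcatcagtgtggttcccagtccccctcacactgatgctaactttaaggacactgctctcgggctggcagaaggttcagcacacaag
Anxa2 (chr9:69453433-69453682, plus): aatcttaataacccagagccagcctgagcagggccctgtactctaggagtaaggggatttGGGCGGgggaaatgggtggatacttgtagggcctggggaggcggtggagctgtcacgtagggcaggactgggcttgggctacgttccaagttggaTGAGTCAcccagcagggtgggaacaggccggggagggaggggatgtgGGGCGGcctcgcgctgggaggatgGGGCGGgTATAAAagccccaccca
S100a11 (chr3:93520246-93520495, plus): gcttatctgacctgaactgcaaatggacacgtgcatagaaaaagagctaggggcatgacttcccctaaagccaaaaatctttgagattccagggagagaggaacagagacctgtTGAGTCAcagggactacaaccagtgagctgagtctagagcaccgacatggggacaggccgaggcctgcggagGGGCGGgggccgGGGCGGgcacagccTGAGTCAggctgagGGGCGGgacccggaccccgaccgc

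The motifs were searched on both strands in 300-base windows, 250 bases before and 50 after the start, and do not overlap one another in these 4 sequences. The AP-1 site TGANTCA was found in Anxa2 (position -95 from the start) and in S100a11 (positions -136 and -38), against 7.81% of 32851 windows of all genes. The GC box GGGCGG was found 3 times in each of the same genes, and 35.7% of all windows hold it. The TATA box TATAAA was found in Anxa1 (-32), Anxa2 (-17) and S100a4 (-31), against 13.6% of windows. The TEAD core GGAATG was found in Anxa1 alone among the 6, on the other strand (-236), and 14.7% of windows hold it. The CArG box was found in Anxa5 alone, in the transcribed part of its window (1.63% of windows). None of the 5 motifs was found in S100a6. These are matches of letters, not measured binding.

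Recovered reads, the whole read numbers that the FPKM values stand for, summed to 34260782 to 40427855 per library. Among the members they ran from 35 for S100a4 in BDL_H replicate 2 (95% exact Poisson interval 24.4 to 48.7, counting error only) to 20263 for Anxa5 in MDR replicate 2. Abcb4 was read at 52.8 to 167.8 FPKM in BDL, 72.1 to 178.4 in BDL_H, 150.1 to 181.3 in MDR and 129.1 to 165.3 in MDR_H. It was not lower in the groups taken as its knockout, so directions that involve them rest on the labels. BDL replicate 1 and BDL_H replicate 2 stood apart, with a median log2(FPKM + 1) over the tested genes of 2.48 and 2.56 against 2.81 to 2.88 in the other BDL and BDL_H libraries and 2.88 to 3.06 in MDR and MDR_H. Ddx3y, Uty, Kdm5d and Eif2s3y, all on the Y chromosome, summed to 16.1 to 19.6 FPKM in BDL and BDL_H and 20.1 in MDR replicate 1, but 0 to 0.016 in the other 5 MDR and MDR_H libraries. The labels give no sex. Y-linked reads thus nearly coincided with the model, so sex and model cannot be told apart in MDR against BDL or in MDR_H against BDL_H. Results that rest on BDL replicate 1 and BDL_H replicate 2 are given with and without them, apart from the calls of cell type markers.

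The members fell into an abundant and a scarcer tier. By mean FPKM over the 12 libraries, S100a10 (242) and Anxa5 (230.1) came first, then Lgals1 (87.6), S100a11 (81.1) and Anxa2 (52.8), and then S100a6 (12.8), Anxa1 (8.38), S100a4 (7.27) and Anxa3 (6.69). S100a10 and Anxa5 overlapped in their library values within each of the 4 groups. Anxa5 was apart from Lgals1 in every group except BDL, while Lgals1, S100a11 and Anxa2 each overlapped the next in every group except MDR_H. The 4 scarcer members were below Anxa2 within each of the 12 libraries. Across the libraries of a group they were also apart from Anxa2 in BDL, MDR and MDR_H. In BDL_H the highest S100a6 value (13.81, replicate 3) was level with the lowest Anxa2 value (13.80, replicate 2). Among the scarcer members, the neighbours in this order overlapped in every group except S100a6 and Anxa1 in MDR_H. Each gene spanned 3.24-fold (S100a11) to 9.38-fold (S100a4) between its lowest and its highest library.

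Anxa1, which curbs inflammation through formyl peptide receptors, was at 3.15, 5.26 and 5.73 FPKM in BDL and at 5.42, 5.05 and 9.86 in BDL_H (replicates 1, 2 and 3). It was at 6.48, 16.3 and 11.5 in MDR and at 11.7, 11.4 and 8.65 in MDR_H. MDR lay wholly above BDL while each HDCA group overlapped its untreated group. Anxa3, an annexin seen in neutrophils and in activated progenitor-like liver cells, had the same arrangement at a lower level. The BDL libraries held 1.56, 4.64 and 4.62 FPKM of it, with 4.58, 2.24 and 5.96 in BDL_H, 6.34, 13.98 and 9.21 in MDR, and 9.58, 10.5 and 7.02 in MDR_H.

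Anxa2, which links membranes to actin and on the cell surface holds plasminogen and its activator, was at 21.5, 44.0 and 50.3 FPKM in BDL and 38.7, 13.8 and 51.4 in BDL_H. It was at 51.0, 94.3 and 89.6 in MDR and at 59.3, 70.9 and 48.3 in MDR_H. MDR replicate 1 was barely above the highest BDL library, and replicates 2 and 3 were well above it. Anxa5, which binds phosphatidylserine exposed on dying cells, was at 56.1, 213.4 and 250.7 in BDL and 217.0, 113.3 and 204.0 in BDL_H. In MDR it was at 283.0, 314.0 and 299.2 and in MDR_H at 290.9, 293.1 and 225.9. The 3 MDR libraries were close together, with a coefficient of variation of 5.20%, while BDL replicate 1 was far below its group.

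S100a10, the partner of Anxa2, was at 124.4, 217.8 and 230.3 FPKM in BDL, 222.7, 161.5 and 232.2 in BDL_H, 265.5, 282.3 and 283.8 in MDR, and 404.6, 260.3 and 218.3 in MDR_H. The high MDR_H replicate 1 was its highest library, whereas the other 8 members were highest in MDR replicate 2. S100a11, which docks onto Anxa1, was at 41.8, 86.4 and 91.5 in BDL, 64.9, 38.2 and 100.7 in BDL_H, 75.8, 123.5 and 95.7 in MDR, and 79.0, 101.2 and 74.4 in MDR_H. Here the groups overlapped in all 4 comparisons.

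S100a4, also called fibroblast-specific protein and carried by macrophages as well, was at 2.02, 6.91 and 4.96 FPKM in BDL and 4.63, 1.55 and 12.98 in BDL_H. It was at 7.12, 14.5 and 6.67 in MDR and 11.3, 9.16 and 5.45 in MDR_H. Its groups overlapped in every comparison, and the BDL_H libraries covered nearly its whole range. S100a6, or calcyclin, a calcium sensor of dividing and of stromal cells, was at 5.46, 10.9 and 6.23 in BDL, 7.05, 5.09 and 13.8 in BDL_H, 13.1, 28.9 and 17.5 in MDR, and 16.6, 15.9 and 13.4 in MDR_H. MDR lay above BDL, and BDL_H replicate 3 reached into the range of MDR_H.

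Lgals1, whose product crosslinks surface sugars and dampens T cells, had the clearest separation. It was at 17.3, 54.5 and 69.2 FPKM in BDL and 66.4, 28.1 and 79.4 in BDL_H. It was at 120.3, 139.7 and 133.8 in MDR and 107.0, 123.7 and 111.7 in MDR_H. Every MDR and MDR_H library was above every BDL and BDL_H library.

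**Figure D1:**
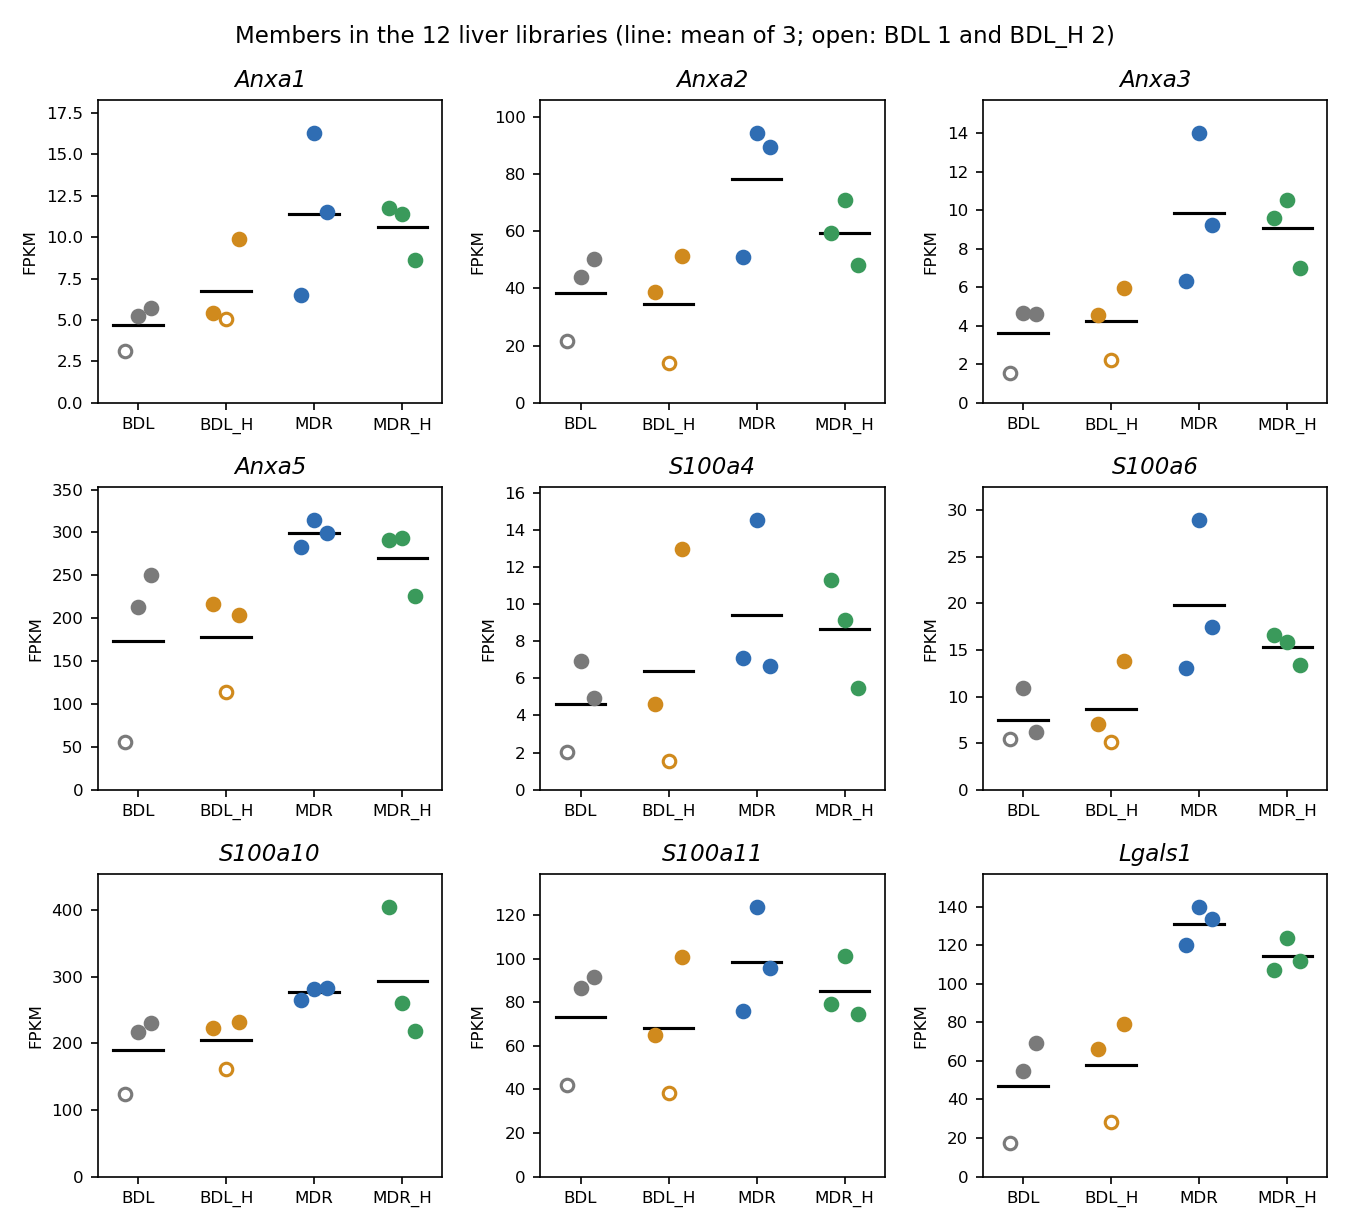
FPKM of each member in the 12 libraries, 1 panel per gene on its own axis from 0, with a point per library and a line at the mean of the 3 libraries of each group. The open points, BDL replicate 1 and BDL_H replicate 2, are the lowest pair of libraries in all 9 panels.

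BDL replicate 1 and BDL_H replicate 2 were the 2 lowest of 12 libraries for all 9 members, the former lowest for 5 and the latter for 4. The median member was lower by 1.10 and 0.94 log2 units there than in the rest of its group (differences of -1.10 and -0.94), against -0.27 for the median tested gene in each. The members' summed FPKM was 273.4 and 368.8 in these libraries, 631.4 to 713.5 in the other BDL and BDL_H libraries and 713.2 to 1027 in MDR and MDR_H. The same genes also varied together elsewhere. Over the 36 pairs of members, Pearson's r of log2(FPKM + 1) across 12 libraries ran from 0.718 to 0.948 with a median of 0.855, and from 0.475 to 0.960 after group means were subtracted. Without BDL replicate 1 and BDL_H replicate 2 the 36 values of r ran from 0.137 to 0.947 with a median of 0.679, so the common pattern rested in part on those libraries. These are descriptions: the pairs share the same libraries, and among 8702 genes with a mean FPKM of 2 or more the median gene followed the members' mean at r = 0.67 over 12 libraries and 0.48 over the 10.

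In ligated livers the question was what HDCA changed. No member was called, as no gene was (limma adjusted p under 0.05, percent called 0; 0 of 9 members and 243 of 10805 genes at an unadjusted p under 0.05; limma-voom called 0 and array weights 1). Anxa1 had the largest difference in log2(FPKM + 1), 0.42 ± 0.31 (SE, n = 3 against 3; 95% interval -0.27 to 1.11), from a mean of 4.71 ± 1.38 FPKM (SD) to 6.78 ± 2.68. Lgals1 differed by 0.38 ± 0.46, from 47.0 ± 26.7 to 58.0 ± 26.7 FPKM, and Anxa2 by -0.25 ± 0.45, from 38.6 ± 15.2 to 34.6 ± 19.1. The intervals were wide, from -1.06 to 1.38 for S100a4 and, at their narrowest, from -0.44 to 0.72 for S100a10. All members had a limma adjusted p of 1.00. In log2(FPKM + 1) the median member differed by 0.16 and the median tested gene by 0.03. Groups without overlap were found for 0 members, against 5.03% of tested genes. Without BDL replicate 1 and BDL_H replicate 2 the differences ran from -0.14 to 0.37, with Anxa5 turning from 0.24 to -0.14, and 0 were called.

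In the libraries labelled MDR and MDR_H, which carry the same question for the other model, 0 of 9 members and 0 of 10805 genes were called by limma (percent called 0; 0 members and 61 genes at an unadjusted p under 0.05, and 0 calls by limma-voom). S100a10 alone had a positive difference, 0.04 ± 0.27 (SE, n = 3 against 3), and it rested on the high MDR_H replicate 1: without it the difference was -0.22. Anxa2 differed most, by -0.36 ± 0.45, from 78.3 ± 23.8 FPKM (SD) to 59.5 ± 11.3, followed by S100a6 at -0.29 ± 0.35, from 19.8 ± 8.17 to 15.3 ± 1.66. Lgals1 differed by -0.20 ± 0.46 (95% interval -1.20 to 0.80). The median member differed by -0.15 and the median tested gene by -0.04. No member had groups without overlap, against 5.95% of tested genes.

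The replicate numbers were treated as pairs in this model for description only, not in the fit above. The pairing was read from the values alone, and no label gives it. Within pairs the members did not move one way. In pair 1 the log2 difference was positive for 8 of 9 members, among them Anxa1 at 0.77, S100a10 at 0.61 and S100a4 at 0.60, with Lgals1 at -0.17. In pair 2 all 9 were negative, with S100a6 at -0.82 and S100a4 at -0.61. In pair 3 all 9 were negative as well, with Anxa2 at -0.88. MDR replicate 1 was the lowest MDR library for 8 of 9 members, and MDR replicate 2 the highest library for 8 of 9. The signs in pairs 1 and 2 thus follow in part from those MDR libraries. The shares of all genes with these signs were not counted. Pair 1 sets MDR replicate 1, which has Y-linked reads, against a library without them. The part of that difference in pair 1 was not tested.

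The difference between the HDCA effects of the 2 models, MDR minus BDL, was negative for all 9 members and called for none (limma, percent called 0; 0 members and 200 genes at an unadjusted p under 0.05). The median tested gene was negative as well, at -0.07, against -0.28 for the median member. The members' difference ran from -0.58 ± 0.65 (SE) for Lgals1 to -0.06 ± 0.51 for S100a11. Its interval for Lgals1 reached from -1.99 to 0.84. Without BDL replicate 1, which is an untreated library, the sign turned for 7 members, with a range of -0.24 to 0.29. Without both BDL replicate 1 and BDL_H replicate 2 it ran from -0.52 to 0.02, with a median of -0.28 as with all 12 libraries, and 0 were called.

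**Figure D2:**
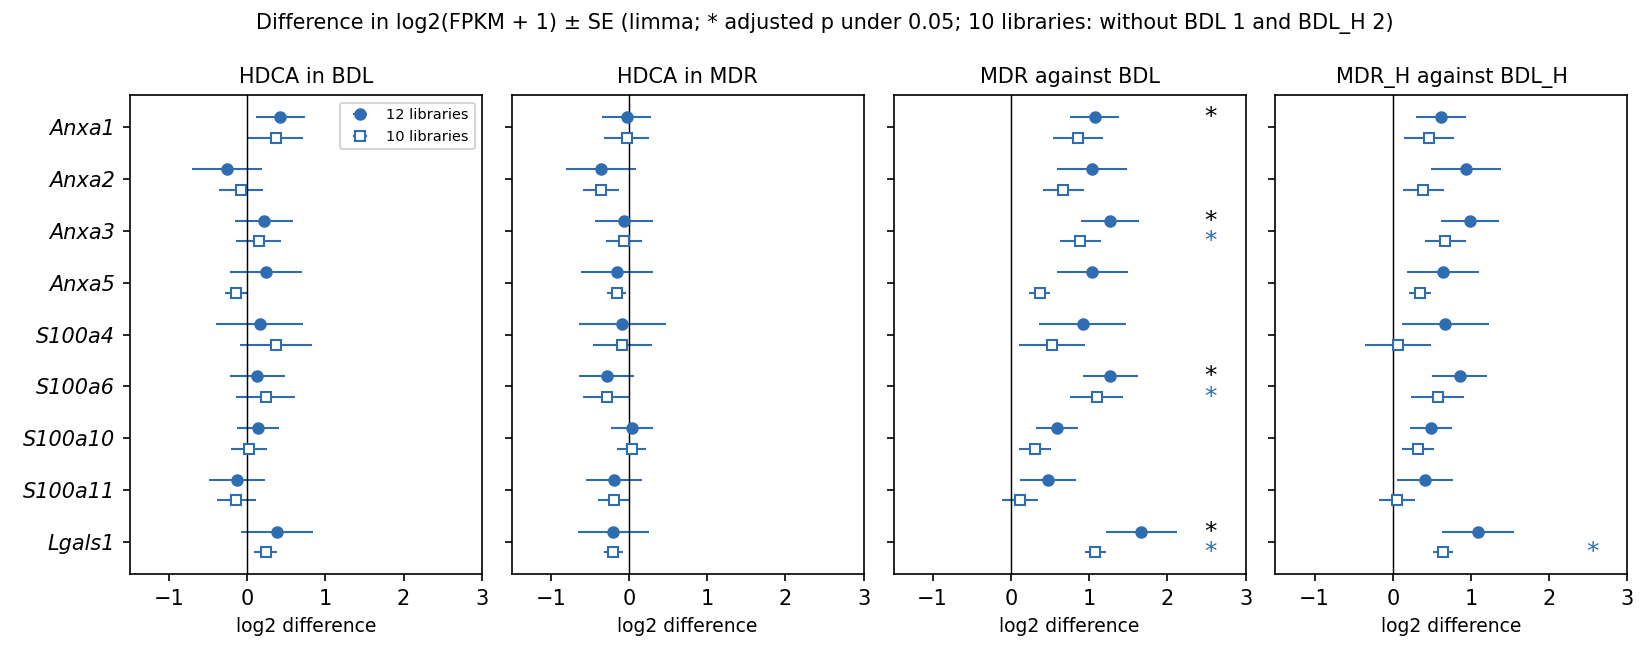
Difference in log2(FPKM + 1) with its SE from limma for each member in 4 comparisons, with all 12 libraries (filled circles) and without BDL replicate 1 and BDL_H replicate 2 (open squares). Stars mark an adjusted p under 0.05: Anxa1, Anxa3, S100a6 and Lgals1 for MDR against BDL with 12 libraries, Anxa3, S100a6 and Lgals1 with 10, and Lgals1 alone for MDR_H against BDL_H with 10.

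The comparison of the untreated models separated the members most. Model cannot be told apart there from sex, since Y-linked reads were in every BDL library and, of MDR, in replicate 1 alone. Lgals1, S100a6, Anxa3 and Anxa1 were higher in the libraries labelled MDR than in BDL, 4 of 9 members, against 15.1% of tested genes called higher. Lgals1 went from 47.0 ± 26.7 FPKM (SD, n = 3) to 131.3 ± 9.95, a log2 difference of 1.67 ± 0.46 (SE; limma adjusted p = 0.0324). S100a6 went from 7.52 ± 2.92 to 19.8 ± 8.17, a difference of 1.27 ± 0.35 (adjusted p = 0.0330). For Anxa3 the difference was 1.26 ± 0.37 (adjusted p = 0.0409), from 3.60 ± 1.77 to 9.85 ± 3.86 FPKM, and for Anxa1 1.07 ± 0.31 (adjusted p = 0.0416), from 4.71 ± 1.38 to 11.4 ± 4.89.

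The other 5 members did not pass the test. Anxa5 differed by 1.04 ± 0.46 (SE; limma adjusted p = 0.132) and Anxa2 by 1.04 ± 0.45 (adjusted p = 0.127), as large as Anxa1 but with wider errors. S100a4 differed by 0.92 ± 0.56 (adjusted p = 0.252), S100a10 by 0.59 ± 0.27 (0.144) and S100a11 by 0.47 ± 0.36 (0.354). Thus among the S100 members the spread of differences was from 0.47 to 1.27, and the Anxa2 partner S100a10 differed less than Anxa2 itself, a contrast that was not tested. The 3 MDR libraries lay wholly above the 3 BDL libraries for 7 of 9 members, all but S100a4 and S100a11, against 39.2% of tested genes. The median member differed by 1.04.

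The whole table was shifted in the same direction, by a median of 0.25. Over all genes, 1630 were called higher and 116 lower (1.07%), and with median-of-ratios scaling, which removes the shift, 671 higher (6.21%) and 381 lower. Under that scaling the 9 members stayed positive, from 0.16 for S100a11 to 1.36 for Lgals1, and Lgals1 alone was called (adjusted p = 0.0415). Quantile normalization left 0 of 9 members called.

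The calls also rested on single libraries. Without BDL replicate 1 none of the 9 was called, against 9.38% of genes called higher, and the differences were 1.08 for Lgals1 (adjusted p = 0.0667), 1.10 for S100a6, 0.88 for Anxa3, 0.86 for Anxa1 and 0.37 for Anxa5. Without both BDL replicate 1 and BDL_H replicate 2, 3 of 9 were called, Lgals1 (1.08 ± 0.13 (SE), limma adjusted p = 0.00187), Anxa3 (adjusted p = 0.0400) and S100a6 (adjusted p = 0.0471), against 17.3% of genes called higher. Without MDR replicate 2 or MDR replicate 3 the count was 0 (4.11% and 5.72% of genes called higher), and without BDL replicate 2 it was 1 (7.52%). Without BDL_H replicate 1 or any 1 MDR_H library it was 2 (11.2% to 13.8%), without MDR replicate 1 it was 3 (11.8%), and without BDL_H replicate 2 it was 5 (20.1%). MDR replicate 1, the MDR library with Y-linked reads, was the lowest MDR library for 8 of 9 members. It was above every BDL library for 8 of 9, all but S100a11. All 3 MDR libraries were above every BDL library for 39.2% of tested genes. The share of genes for MDR replicate 1 alone was not counted, and 1 library does not tell sex and model apart.

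With HDCA in both models the same contrast, MDR_H against BDL_H, had a smaller estimate for all 9 members, a difference that is the one between the HDCA effects and was called for none. It ran from 0.41 for S100a11 to 1.09 ± 0.46 (SE) for Lgals1 (limma adjusted p = 0.145), with 0 of 9 called, 3 at an unadjusted p under 0.05 (Lgals1, Anxa3 and S100a6), and 7.36% of genes called higher and 0.935% lower (3060 genes at an unadjusted p under 0.05, and 0 members by limma-voom). The median member differed by 0.67 and the median tested gene by 0.20. Lgals1, Anxa3 and Anxa5 had groups without overlap, 3 of 9 members against 32.4% of genes. Without BDL replicate 1 and BDL_H replicate 2 the difference of Lgals1 was 0.64 and was called (adjusted p = 0.0181), as it was without BDL replicate 1 alone (adjusted p = 0.0380). That is 1 of 9 members in each, against 8.46% and 12.7% of genes called higher.

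In bulk liver, fewer cells of a type and less RNA per cell cannot be told apart, so the marker lists of the liver's cell types are given beside the members. The members' mean followed the monocyte and macrophage markers at r = 0.964 over 12 libraries, 0.922 within groups, and 0.957 without BDL replicate 1 and BDL_H replicate 2. In the same order, r was 0.917, 0.935 and 0.853 for stellate cell and myofibroblast markers and 0.895, 0.874 and 0.895 for T and NK cell markers. It was 0.853, 0.688 and 0.871 for cholangiocyte markers, 0.869, 0.770 and 0.745 for B and plasma cell markers, and 0.746, 0.625 and 0.581 for endothelial markers. For the median of 8702 single genes r was 0.67 over 12 libraries, 0.62 within groups and 0.48 without the 2 libraries. Each marker list is a mean over several genes, which is less noisy than 1 gene, so these are unlike measures. Even so, the endothelial values were not far above those of the median gene. Kupffer cell markers (0.891, 0.961 and 0.471) and hepatocyte markers, which ran against the members (-0.843, -0.852 and -0.424), followed them less closely without those libraries. Neutrophil (-0.539, 0.213 and -0.449) and mesothelial (-0.063, 0.618 and -0.327) markers changed sign once group means were subtracted. The neutrophil list holds Prtn3, which was far lower in MDR than in BDL, and r without Prtn3 was not computed. All of these lists come from the same 12 libraries, with the low median gene of BDL replicate 1 and BDL_H replicate 2 in common.

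Between MDR and BDL the marker lists moved too. The calls are given with all 12 libraries only, where 15.1% of all tested genes were called higher and 1.07% lower. Called higher by limma were 6 of 10 stellate cell and myofibroblast markers (summed FPKM 75.5 to 159.5 in BDL and 252.8 to 477.5 in MDR), 6 of 10 endothelial markers (30.2 to 132.3 and 154.0 to 190.4) and 6 of 8 tested cholangiocyte markers (126.7 to 413.7 and 341.7 to 532.0). The same held for 4 of 10 monocyte and macrophage markers (121.8 to 252.9 and 456.4 to 1156), 1 of 10 Kupffer cell markers (276.0 to 612.1 and 530.2 to 782.3), 2 of 4 tested T and NK cell markers (1.51 to 3.91 and 5.86 to 11.4) and 2 of 4 tested B and plasma cell markers (100.7 to 142.4 and 113.6 to 131.5). Most of the B and plasma cell sum was Xbp1, at 99.8 to 139.1 FPKM in BDL and 102.4 to 113.4 in MDR, and not called. The 2 called were scarce: Cd79a had a mean of 0.262 in BDL and 1.74 in MDR, and Cd79b 0.667 and 2.01. Of the hepatocyte markers 0 of 10 were higher and 1 was lower (51110 to 59680 and 36690 to 45110), so that the labelled tissue was present in every library. Neutrophil markers summed to 15.1 to 20.6 in BDL and 3.63 to 9.15 in MDR, with 1 of 4 tested lower. That was Prtn3, a granule protease, at 10.6 to 13.9 FPKM in BDL and 0.138 to 0.605 in MDR, and the other 9 neutrophil markers summed to 4.38 to 7.31 and 3.49 to 8.54, with Ly6g listed at 0 in 11 libraries and Mpo in 8. Mesothelial markers summed to 4.27 to 5.74 and 2.27 to 5.04, with 0 of 2 tested called and Krt14 listed at 0 in 6. No marker of the hepatocyte, stellate cell, endothelial, Kupffer cell, or monocyte and macrophage lists was at 0 in any library. The part of these lists in the members' differences was not tested.

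BDL replicate 1 was lower than the rest of its group by 1.31 log2 units for endothelial and 1.24 for Kupffer cell markers (mean differences of -1.31 and -1.24), and higher by 0.76 for hepatocyte markers. Its endothelial sum was 30.2 FPKM, against 92.9 and 132.3 in BDL replicates 2 and 3. BDL_H replicate 2 differed from its group by -1.17 for monocyte and macrophage, -1.02 for Kupffer cell and 0.47 for hepatocyte markers. Endothelial markers differed by only -0.11 in BDL_H replicate 2.

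**Figure D3:**
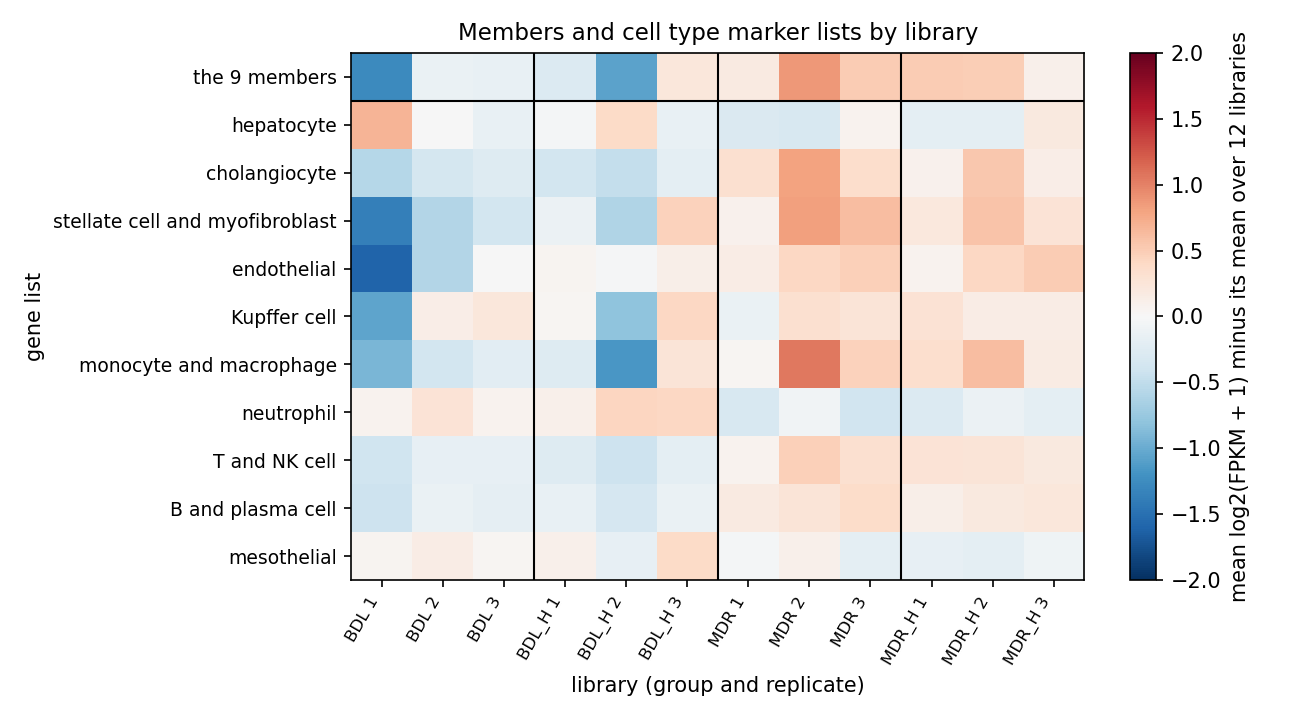
Mean log2(FPKM + 1) of the 9 members (top row) and of each cell type marker list, minus its mean over the 12 libraries, with a column per library (red above, blue below). The members, the monocyte and macrophage list and the Kupffer cell list are lowest in BDL replicate 1 and BDL_H replicate 2, where hepatocyte markers are highest.

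The rest of the 3 families was tested on the same contrast of untreated models, in which 15.1% of all tested genes were called higher. Most genes named below are those with the smallest p of their list in this contrast. Of 8 other annexins 5 were tested and 1 was called higher, Anxa13, an annexin of epithelial membranes. The BDL libraries held 2.21, 0.656 and 1.04 FPKM of it, against 3.03, 6.32 and 4.10 in MDR, a log2 difference of 1.27 ± 0.28 (SE; limma adjusted p = 0.0142). It was called under 17 of 21 alternative settings, and lost its call with quantile normalization (adjusted p = 0.0773), with only the libraries compared (0.0556), without BDL replicate 2 (0.0519) and without MDR replicate 2 (0.0693). Anxa4, an annexin of bile duct and other epithelia, differed by 0.58 ± 0.25, Anxa6 by 0.32 ± 0.15 Anxa11 by 0.16 ± 0.12 and Anxa7 by -0.14 ± 0.23, none of them called. The median of these 5 was 0.32.

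Of 12 other S100 genes, 6 were tested and 0 were called. S100a16 differed by 0.51 ± 0.17 (SE; limma adjusted p = 0.0605), S100a1 by 0.37 ± 0.13 (0.0729), S100g by 0.37 ± 0.33 and S100a13 by 0.33 ± 0.20. S100a8 and S100a9, the subunits of neutrophil calprotectin, differed the other way, by -0.49 ± 0.60 and -0.24 ± 0.51. The median of the 6 was 0.35, and without BDL replicate 1 and BDL_H replicate 2 S100a1 and S100a13 were called higher, against 17.3% of tested genes.

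Of 9 other galectins, 5 were tested and 0 were called, with a median of 0.45. Lgals3, the macrophage galectin, was at 12.8, 22.0 and 17.9 FPKM in BDL and 23.3, 38.3 and 27.4 in MDR, a log2 difference of 0.72 ± 0.41 (SE; limma adjusted p = 0.224). Lgals9 differed by 0.45 ± 0.18, Lgalsl by 0.26 ± 0.12 and Lgals8 by 0.23 ± 0.11. Whether Lgals1 differed from these relatives was not tested.

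Of the 15 partners and receptors reported here, 13 were tested and 3 were called higher, against 15.1% of all tested genes, with a median of 0.41. Plat, tissue plasminogen activator, was at 0.941, 0.921 and 1.03 FPKM in BDL and 4.04, 9.00 and 7.09 in MDR, a log2 difference of 1.92 ± 0.26 (SE; limma adjusted p = 0.00240). Plau, urokinase, was at 0.301, 1.10 and 1.03 and at 2.46, 3.66 and 2.45, a difference of 1.11 ± 0.28 (adjusted p = 0.0233). Ahnak, a giant scaffold protein bound by Anxa2 and S100a10, was at 0.838, 1.81 and 1.89 and at 2.79, 4.69 and 3.90, a difference of 0.94 ± 0.26 (adjusted p = 0.0317). For all 3 genes MDR lay wholly above BDL, as for 39.2% of tested genes. They were named for their small p in this same contrast, so the separation adds no evidence of its own.

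Plat was called under all 21 alternative settings that could test it. Plau lost its call without BDL replicate 1, MDR replicate 2 or MDR replicate 3, and Ahnak without any of these, without BDL replicate 2 or with only the libraries compared. Without both BDL replicate 1 and BDL_H replicate 2 the 3 were called higher and Myh9, the nonmuscle myosin bound by S100a4, lower. Over all tested genes 17.3% were called higher there, and 359 of 10787 lower. Nrp1, a surface receptor bound by galectin-1, differed by 0.48 ± 0.20 (SE; limma adjusted p = 0.122). The urokinase receptor Plaur differed by -0.12 ± 0.31 and plasminogen itself, Plg, by -0.31 ± 0.14 (limma adjusted p = 0.134), and neither was called. With HDCA in both models Plat was higher in MDR_H (1.37 ± 0.26, limma adjusted p = 0.0140). S100a1 (0.50 ± 0.13, limma adjusted p = 0.0421) and Lgalsl (0.71 ± 0.12, adjusted p = 0.0120) were higher there too, against 7.36% of tested genes called higher. None of the genes reported from these 4 lists was called for HDCA in either model.

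**Figure D4:**
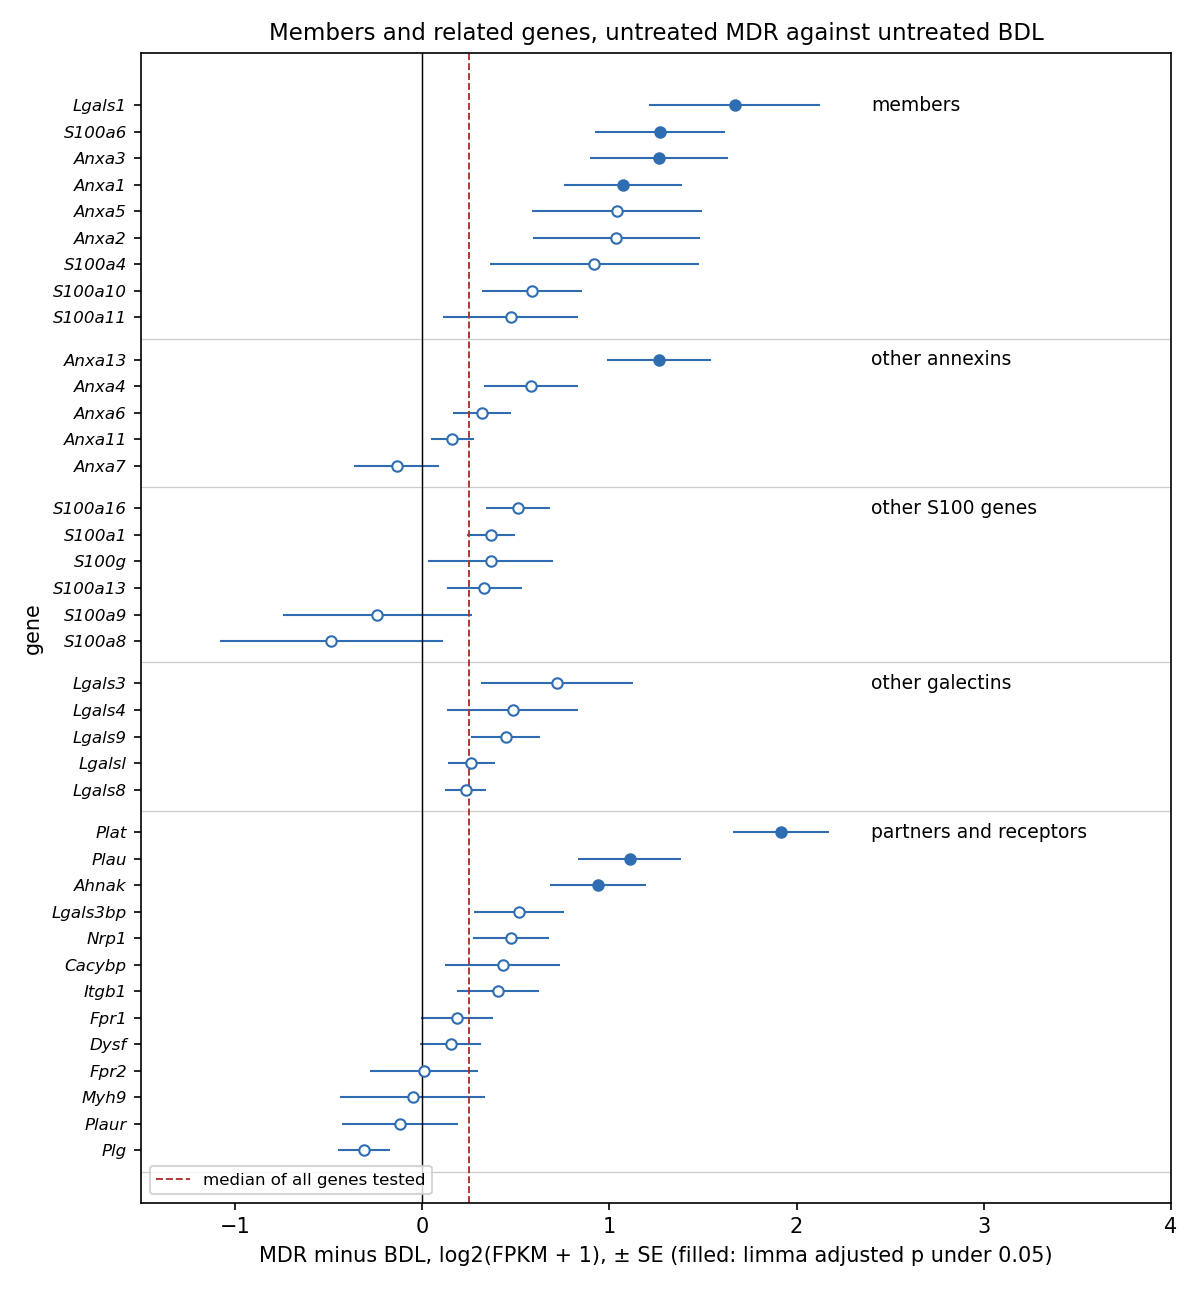
Difference in log2(FPKM + 1), MDR minus BDL, with its SE for the members and the tested genes of the 4 related lists; filled points have a limma adjusted p under 0.05, and the dashed line is the median of all genes tested, 0.25. All 9 members lie to the right of the dashed line, and Plat at 1.92 lies farthest to the right.

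S100a10 and Anxa2 form 1 complex, and their FPKM ratio was not constant. It was 5.79, 4.95 and 4.58 in BDL, 5.75, 11.7 and 4.52 in BDL_H, 5.21, 2.99 and 3.17 in MDR, and 6.82, 3.67 and 4.52 in MDR_H. BDL_H replicate 2 had the highest ratio, and Anxa2 was at its lowest there (13.8 FPKM). MDR replicates 2 and 3, with the highest Anxa2, had the lowest ratios. Anxa2 is the denominator, so both of these follow in part from the division itself. The groups overlapped (5.11 ± 0.62 (SD, n = 3) in BDL and 3.79 ± 1.23 in MDR).

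The genes whose pattern was most like that of the members were sought among 8702 other genes whose mean FPKM was 2 or more, by Pearson's r over 12 libraries with the mean of the 9 standardised members. The closest 8 were Dync1i2 (r = 0.992), a dynein subunit, Cd300c2 and Clic1 (both 0.989), a myeloid surface receptor and a chloride channel protein, Evl and Ppp1r18 (both 0.988), which act on actin, Cd48 (0.986) and Arhgdib (0.985), found in blood cells, and Neurl3 (0.985), a ubiquitin ligase. Without BDL replicate 1 and BDL_H replicate 2 their r was 0.943 to 0.974. Over 12 libraries the 95th percentile of all genes compared was 0.929. Neurl3 was the only one of the 8 called between MDR and BDL (1.33 ± 0.38 (SE), limma adjusted p = 0.0369). Dync1i2 tracked the members with a smaller difference, 0.42 ± 0.15 (adjusted p = 0.0780).

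Some member counts may share reads. S100a4 overlaps Gm42674 on the same strand, Anxa3 overlaps Gm42603, and Anxa2 overlaps Gm16144 on the opposite strand, and whether counting used strand is not given in the sources used here. S100a11 has near-identical copies in Gm12854, listed at 0.371 to 1.29 FPKM against at least 38.2 for S100a11, and in Gm7665, which is not in the table.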

How the data were processed

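The authors deposited 1 table of FPKM values for 16970 gene symbols in 12 mouse liver libraries, 3 in each of 4 groups named by the sample titles. Per the submitters' processing notes, CASAVA 1.8, fastp, HISAT2 2.0.5, featureCounts 1.5.0-p3, DESeq2 1.20.0 and the build GRCm38 were used; settings are not given in the sources used. FPKM steps gave whole reads within 0.02 of a read for 16968 of 16970 genes (99.99%), not for Fn1 and Mmp9.

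Values were transformed as log2(FPKM + 1), which understates the change of low genes, and 10805 genes reaching an FPKM of 1 in 3 or more libraries were fitted by limma 3.58.1 (R 4.3.3) with trend to the 4 group means. Tests were two-sided, with Benjamini-Hochberg adjustment over all genes tested and calls at an adjusted p under 0.05. limma-voom on the recovered reads, an alternative, called 1514 genes higher and 113 lower for MDR against BDL and 0 for HDCA in either model. Other alternatives changed the pseudocount, filter, scaling, weights, block and libraries used. Correlations without the 2 libraries that stand apart and the neutrophil sum without Prtn3 were chosen after seeing the data.

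The members and the gene lists were chosen with earlier results of these data known. Named genes are all 9 members, up to 4 genes per related list with the smallest p for MDR against BDL, the 8 genes most like the members (passing over predicted genes without a name and segments of immunoglobulin or T cell receptor genes), Abcb4 and the sum of 4 Y-linked genes. Plaur, Plg, Myh9, Prtn3, Xbp1, Cd79a, Cd79b, Anxa7, S100a8, S100a9 and the genes called in MDR_H against BDL_H or without libraries were added with their values known. A gene of the partner list is not reported here.

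Titles of different groups carry the same replicate numbers, with nothing said of what they mark. After subtraction of group means, libraries with the same number correlated at 0.438, 0.312 and 0.548 between MDR and MDR_H. These were therefore treated as pairs, from the values alone, in the differences given within pairs. The main fit used no pairs, and the replicate block was an alternative setting. They did not so correlate between BDL and BDL_H (-0.430, -0.382 and 0.431) or between BDL and MDR (-0.244 to -0.149).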

Additional observations from a re-analysis of the deposited data

How the results depend on the processing

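The members' 36 log2 differences were recomputed under 22 settings. Of 792 such values, 711 kept their direction and their side of the threshold, 44 lost a call, 8 gained one and 29, all for HDCA, changed sign. Only the 4 members called for MDR against BDL had a call to lose. Anxa1 and Anxa3 each lost it under 15 of the 22 settings, and Lgals1 and S100a6 each under 7. For MDR against BDL the count of members called, 4, against 15.1% of genes called higher, was 2 without a filter on low values (12.6%), 2 with a mean FPKM of at least 5 (8.76%), 1 with median-of-ratios scaling (6.21%), 0 with quantile normalization (5.07%), 0 with only the libraries compared (6.02%) and 7 with array weights (38.9%), whose estimate stopped short of its convergence tolerance; it was 0 to 5 without 1 library. With a replicate block it was 3 (11.6%), Anxa3 losing its call, and the replicate block changed no other member's call. For MDR_H against BDL_H the count was 2 with array weights (20.2%), 1 without BDL replicate 1 and BDL_H replicate 2 together (8.46%) and 0 to 1 without 1 library. For HDCA no setting called a member. With array weights the HDCA difference in BDL was -0.031 for Anxa5, -0.087 for S100a4 and -0.20 for S100a6, and in MDR -0.10 for S100a10. It was -0.14 for Anxa5 in BDL without both libraries that stand apart. Anxa1 in MDR was at 0.0065 with median-of-ratios scaling and 0.0022 with quantile normalization. Without 1 library at a time, the HDCA in BDL differences that changed sign ran from -0.62 to 0.29 for Anxa2, -0.17 to 0.53 for Anxa3, -0.43 to 0.64 for Anxa5, -0.46 to 0.76 for S100a4, -0.23 to 0.41 for S100a6, -0.14 to 0.30 for S100a10, -0.49 to 0.22 for S100a11 and -0.21 to 0.83 for Lgals1. Without 1 library at a time, the HDCA in MDR differences that changed sign ran from -0.35 to 0.25 for Anxa1, -0.32 to 0.20 for Anxa3, -0.29 to 0.24 for S100a4, -0.53 to 0.0097 for S100a6 and -0.22 to 0.23 for S100a10. The causes were not tested.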
